A study of Mus musculus with 9 samples.

Results

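Prostaglandins are lipid mediators that are made from arachidonate and act on neighbouring cells. The 10 genes described here encode 4 receptors for prostaglandin E2, the EP receptors (Ptger1, Ptger2, Ptger3 and Ptger4), the prostacyclin receptor (Ptgir), both cyclooxygenases (Ptgs1 and Ptgs2), 2 terminal synthases (Ptges and Tbxas1) and the enzyme that begins prostaglandin breakdown (Hpgd). They are 10 of the 45777 genes in the count table and were taken by gene symbol. Ptger1 was the starting point because it had the smallest p of all genes tested in both comparisons that involve the combination treatment, so its difference in those comparisons is described and not tested. The other 9 genes were added around it as the receptors and enzymes of the same pathway.

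The libraries were made from CD45+ cells, isolated with magnetic beads from WEHI-164 tumors. WEHI-164 is a mouse fibrosarcoma line that was grafted subcutaneously in BALB/c mice. The doxorubicin + ADU-S100 group received 5 mg/kg doxorubicin weekly and 25 µg ADU-S100, a cyclic dinucleotide that activates the sensor STING, 2 times a week, both injected into the tumor. The doxorubicin group received 5 mg/kg doxorubicin in the same way, and the control group received neither drug. Each group had 3 libraries, all from tumors harvested on day 7. No group here received ADU-S100 alone, so ADU-S100 was compared only on top of doxorubicin. The labels do not say whether each library came from 1 animal, and the p-values measure the spread between these libraries only. The comparisons are not independent of each other, since every group enters 2 of the 3.

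Library totals were 50110494 to 69456603 counts. Values are given as counts scaled to library size (CPM) after TMM scaling, a correction for differences in RNA composition. The leukocyte gate gene Ptprc, which encodes CD45, was at 189 to 627 CPM in doxorubicin + ADU-S100 libraries, 360 to 409 CPM in doxorubicin libraries and 303 to 551 CPM in control libraries. Transcripts of 13 fibroblast and sarcoma genes such as collagens were nevertheless detected in every library. Their summed level was 831 to 2249 CPM in doxorubicin + ADU-S100 replicate 3, doxorubicin replicates 1 and 3 and control replicate 2, against 170 to 283 CPM in the other 5 libraries. In bulk RNA, fewer cells of a type and less RNA per cell cannot be told apart.

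Cyclooxygenase-1, encoded by Ptgs1, is present constitutively in many cells, whereas cyclooxygenase-2, encoded by Ptgs2, is induced in macrophages and fibroblasts by inflammatory signals. Ptges then converts their product to prostaglandin E2. In textbook pharmacology EP2 and EP4 raise cyclic AMP, EP3 lowers it and EP1 raises intracellular calcium. Macrophages carry mainly EP2 and EP4.

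Ptger1 (gene ID 19216, mm10 chr8:83666644-83672756, plus strand), which encodes EP1, was almost undetected outside the combination. It had 64, 37 and 44 counts in doxorubicin + ADU-S100 replicates 1, 2 and 3, against 3, 2 and 1 counts in doxorubicin libraries and 2, 2 and 1 counts in control libraries. These counts correspond to 1.18, 0.776 and 0.592 CPM in doxorubicin + ADU-S100 libraries, 0.0546, 0.0388 and 0.0165 CPM in doxorubicin libraries, and 0.0354, 0.0306 and 0.0185 CPM in control libraries. All 3 combination libraries lay above all 6 others and replicate 1 was the highest. Of all genes tested, 1.55% lay above all 6 other libraries in this way.

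Summed over libraries, Ptger1 had 145 counts in the doxorubicin + ADU-S100 group and 5 counts in the control group, a ratio of 25.7 after correction for total counts, with a 95% exact counting interval of 10.8 to 80.4. Against the 6 counts of the doxorubicin group the ratio was 20.6, with an interval of 9.24 to 57.0. The intervals come from counts pooled over libraries, so they leave out the spread between libraries. They also take every count as independent, which cannot be checked for reads without molecular identifiers. Ptger1 was chosen by these comparisons, so its ratios may be too high and the intervals are no test of it. The fitted log2 fold changes in edgeR were 4.80 against control and 4.47 against doxorubicin. Both stayed high under the alternatives in which the gene could be fitted, at 4.44 to 5.06 and 4.10 to 4.88. Ptger1 passed the filter on low counts only because of its counts in the combination libraries.

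In doxorubicin against control, Ptger1 had 6 and 5 summed counts, too few for an informative test. The ratio was 1.25, with an interval of 0.318 to 5.18, and the fitted log2 fold change was 0.34 (SE 0.70, unadjusted p = 0.699 in edgeR). The interval includes a change of up to 5.18-fold, so a moderate difference was not detectable at this depth. Libraries were made with a stranded kit, but the strand setting of the counting is not given in the sources used here, so the assignment of reads to Ptger1 is uncertain in every comparison.

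**Figure D1:**
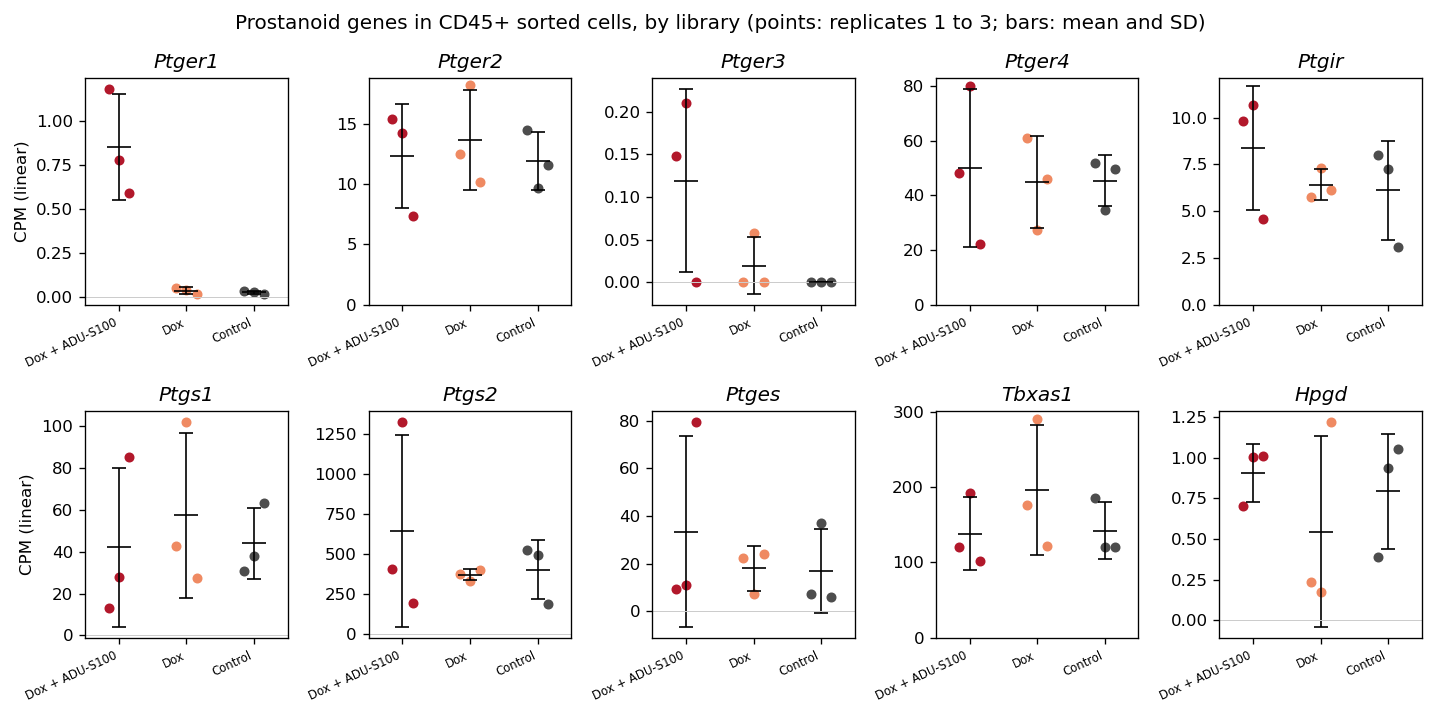
Level of the 10 genes in every library, in CPM on linear axes that differ between panels. Points are replicates 1 to 3 of doxorubicin + ADU-S100, doxorubicin and control, and bars give the mean and SD. Only in the Ptger1 panel do the doxorubicin + ADU-S100 points (0.592 to 1.18 CPM) lie apart from those of both other groups.

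None of the other EP receptors was called in any comparison. Ptger4 (gene ID 19219, chr15:5233399-5244187), the EP4 gene, was the most abundant of them, with 48.3, 79.9 and 22.1 CPM in doxorubicin + ADU-S100 libraries, 61.2, 27.5 and 46.2 CPM in doxorubicin libraries, and 51.8, 34.7 and 49.7 CPM in control libraries. Combination libraries gave both the highest and the lowest of the 9 values. Its log2 fold change was 0.14 against control (SE 0.44) and 0.16 against doxorubicin (SE 0.44), both within the spread between replicates.

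Ptger2 (gene ID 19217, chr14:44988111-45003820), the EP2 gene, was the least variable of the 10. It was at 15.4, 14.2 and 7.38 CPM in doxorubicin + ADU-S100 libraries, 12.5, 18.2 and 10.1 CPM in doxorubicin libraries, and 14.5, 9.67 and 11.6 CPM in control libraries. The 3 groups overlapped, the highest value was 2.47 times the lowest, and the log2 fold changes were 0.05 against control (SE 0.34) and -0.14 against doxorubicin (SE 0.34).

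Ptger3 (gene ID 19218, chr3:157566821-157644758), the EP3 gene, was the only one of the 10 that did not pass the filter on low counts. It had 8, 10 and 0 counts in doxorubicin + ADU-S100 libraries, 0, 3 and 0 counts in doxorubicin libraries, and 0 counts in all 3 control libraries. With the control group set at a floor of 3 counts, the ratio of the combination group to it was 5.32. This is a single value without an interval, and not a minimum. Against the doxorubicin group the ratio of 18 to 3 counts was 5.11, with a 95% counting interval of 1.49 to 27.1. Replicate 3 had none, so the combination libraries overlapped both other groups.

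Ptgir (gene ID 19222, chr7:16906490-16910905) encodes the prostacyclin receptor, which like EP2 and EP4 raises cyclic AMP. It was at 9.85, 10.7 and 4.57 CPM in doxorubicin + ADU-S100 libraries, 5.78, 7.33 and 6.16 CPM in doxorubicin libraries, and 8.03, 7.25 and 3.07 CPM in control libraries. Combination replicates 1 and 2 were the highest of the 9 libraries and replicate 3 was among the lowest. The log2 fold changes of 0.45 against control (SE 0.43) and 0.38 against doxorubicin (SE 0.43) were about as large as their standard errors.

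Placed beside the other EP receptors, Ptger1 stayed a small part of the receptor transcripts even where it was highest. Levels per length, in CPM per kilobase of exon, allow the 4 genes to be compared. Ptger1 made up 2.07%, 0.951% and 2.24% of their summed level per length in doxorubicin + ADU-S100 libraries, 0.0860%, 0.0928% and 0.0340% in doxorubicin libraries, and 0.0613%, 0.0792% and 0.0349% in control libraries. Ptger4 made up 68.5 to 80.5% in doxorubicin + ADU-S100 libraries, 54.0 to 79.2% in doxorubicin libraries and 73.6 to 77.0% in control libraries. Ptger2 accounted for most of the remainder in every library.

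The cyclooxygenases varied widely between libraries of one group. Ptgs2 (gene ID 19225, chr1:150100031-150108234) was at 409, 1329 and 198 CPM in doxorubicin + ADU-S100 libraries, 380, 335 and 401 CPM in doxorubicin libraries, and 527, 493 and 193 CPM in control libraries. Combination replicate 2 was the highest of the 9 libraries, but replicate 3 lay with control replicate 3 at the bottom. The log2 fold change was 0.68 against control (SE 0.63, unadjusted p = 0.309 in edgeR), 0.80 against doxorubicin (SE 0.63, unadjusted p = 0.237), and -0.12 for doxorubicin against control (SE 0.62, unadjusted p = 0.851). Single libraries decided the combination values. Without combination replicate 2 the log2 fold change was -0.41 against control and -0.29 against doxorubicin, and without replicate 3 it was 1.23 against doxorubicin (unadjusted p = 0.0427 in edgeR), a call at the thresholds of the study of more than 2-fold at an unadjusted p below 0.05.

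Ptgs1 (gene ID 19224, chr2:36216742-36258593) was spread differently within the combination group, where replicate 3 was the highest. It was at 13.01, 27.8 and 85.1 CPM in doxorubicin + ADU-S100 libraries, 42.5, 102 and 27.3 CPM in doxorubicin libraries, and 30.7, 37.7 and 63.3 CPM in control libraries. Combination replicates 1 and 3 spanned nearly the whole range of the 9 libraries. The log2 fold changes were -0.06 against control (SE 0.68) and -0.45 against doxorubicin (SE 0.68). Without combination replicate 3 the difference from doxorubicin was -1.49 (unadjusted p = 0.0341 in edgeR).

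A ratio of Ptgs2 to Ptgs1 counts inside each library needs no scaling between libraries. Its log2 was 4.97, 5.58 and 1.22 in doxorubicin + ADU-S100 libraries, 3.16, 1.71 and 3.87 in doxorubicin libraries, and 4.10, 3.71 and 1.61 in control libraries. Ptgs2 counts exceeded Ptgs1 counts in all 9 libraries, and the groups overlapped. The means differed by 0.79 between the combination and control (exact two-sided permutation p = 0.6), by 1.01 between the combination and doxorubicin (exact p = 0.6), and by -0.22 between doxorubicin and control (exact p = 0.8). After adjustment over the 3 comparisons each exact p was 0.8, and 3 libraries against 3 cannot give an exact p under 0.1.

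Among the synthases, Ptges (gene ID 64292, chr2:30889471-30931020), the inducible prostaglandin E synthase, varied most. It was at 9.61, 10.9 and 79.6 CPM in doxorubicin + ADU-S100 libraries, 22.6, 7.24 and 24.2 CPM in doxorubicin libraries, and 7.18, 37.2 and 6.19 CPM in control libraries. Each group held libraries at both ends, and the log2 fold change was 0.99 against control (SE 0.96), 0.89 against doxorubicin (SE 0.96), and 0.10 for doxorubicin against control (SE 0.96). The sign depended on single libraries, since the change against control was -0.72 without combination replicate 3 and 2.32 without control replicate 2 (unadjusted p = 0.0454 in edgeR).

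Ptges was high in the libraries with high fibroblast transcripts, which came from all 3 groups. It was at 22.6 to 79.6 CPM in the 4 libraries rich in those transcripts, against 6.19 to 10.9 CPM in the other 5 libraries, with no overlap. The libraries were grouped by their own fibroblast values, and the share of all genes that separate them in this way was not computed. Prrx2, a transcription factor gene of mesenchymal cells that is the next gene to Ptges, had 101, 24 and 1157 counts in doxorubicin + ADU-S100 libraries, 291, 83 and 345 counts in doxorubicin libraries, and 36, 507 and 86 counts in control libraries. Its 4 highest counts were in the same 4 libraries. No other of the 10 genes separated these libraries upwards: Ptgs1, for example, was at 27.3 to 85.1 CPM in the 4 and 13.01 to 102 CPM in the other 5. Alternatives other than leaving out single libraries gave Ptges log2 fold changes of -0.01 to 1.01 against control and -0.61 to 0.92 against doxorubicin. In both comparisons the unadjusted p fell below 0.05 under some of them. In doxorubicin against control they gave 0.09 to 1.16, with 1 call at the thresholds of the study. A difference between treatment groups is therefore not excluded. The part of fibroblasts or tumor cells in the Ptges values was not tested.

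**Figure D2:**
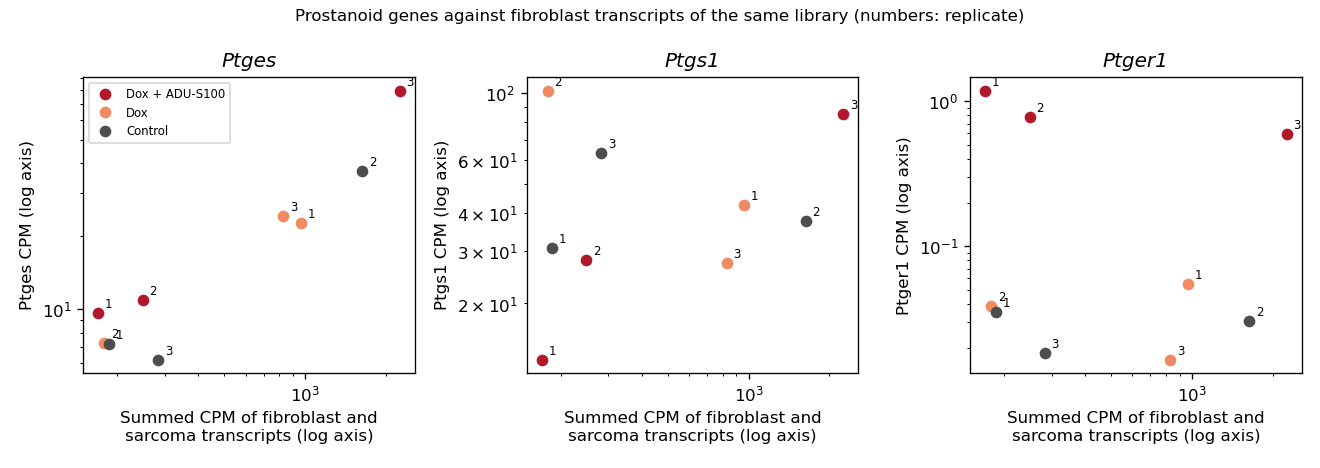
Levels of selected genes of the pathway (CPM, log axis) against the summed level of 13 fibroblast and sarcoma genes in the same library (CPM, log axis), with replicate numbers beside the points and groups in colour. The 4 libraries to the right, at 831 to 2249 CPM of fibroblast transcripts, hold the 4 highest Ptges values.

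Tbxas1 (gene ID 21391, chr6:38864159-39084590), thromboxane synthase and a gene well expressed in macrophages, was at 120, 193 and 102 CPM in doxorubicin + ADU-S100 libraries, 176, 290 and 121 CPM in doxorubicin libraries, and 186, 121 and 120 CPM in control libraries. The groups overlapped, with log2 fold changes of -0.04 against control (SE 0.36) and -0.50 against doxorubicin (SE 0.37). Hpgd (gene ID 15446, chr8:56294552-56321046), which encodes 15-hydroxyprostaglandin dehydrogenase, was near the limit of detection. It had 38, 48 and 75 counts in doxorubicin + ADU-S100 libraries, 13, 9 and 74 counts in doxorubicin libraries, and 22, 61 and 57 counts in control libraries. Its log2 fold change was 0.19 against control (SE 0.74) and 0.73 against doxorubicin (SE 0.74), and without doxorubicin replicate 3 the difference from doxorubicin was 2.13 (unadjusted p = 0.00881 in edgeR) and that of doxorubicin from control was -1.94 (unadjusted p = 0.0136).

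Apart from Ptger1, 8 of the 10 genes were tested, and none was called in any comparison. At an adjusted p under 0.05, edgeR and limma-voom called 0 of 16373 genes in each comparison. The counts with DESeq2 were 27 genes (0.165%) in the combination against control, 9 (0.0550%) in the combination against doxorubicin and 2 (0.0122%) in doxorubicin against control. At an unadjusted p under 0.05, edgeR counted 727 genes (4.44%) in the combination against control, 451 (2.75%) in the combination against doxorubicin and 116 (0.708%) in doxorubicin against control, and none of the 8 genes was among them. The study called genes that changed by more than 2-fold at an unadjusted p below 0.05. By these thresholds 1.46% of genes were higher and 0.708% lower in the combination than in control, 0.867% were higher and 0.348% lower than in doxorubicin, and 0.360% were higher and 0.0916% lower in doxorubicin than in control.

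The groups overlapped for all 8 genes in all 3 comparisons. Among all genes, 4.39% lay wholly higher and 3.95% wholly lower in the combination than in control, 3.53% and 2.63% did so against doxorubicin, and 1.77% and 2.63% did so in doxorubicin against control. The median log2 fold change of the 8 genes was 0.16, 0.27 and 0.08 in these comparisons, against 0.06, 0.07 and -0.01 over all genes. The standard errors of 0.34 to 0.96 on the log2 scale set how small a change could be detected in them.

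**Figure D3:**
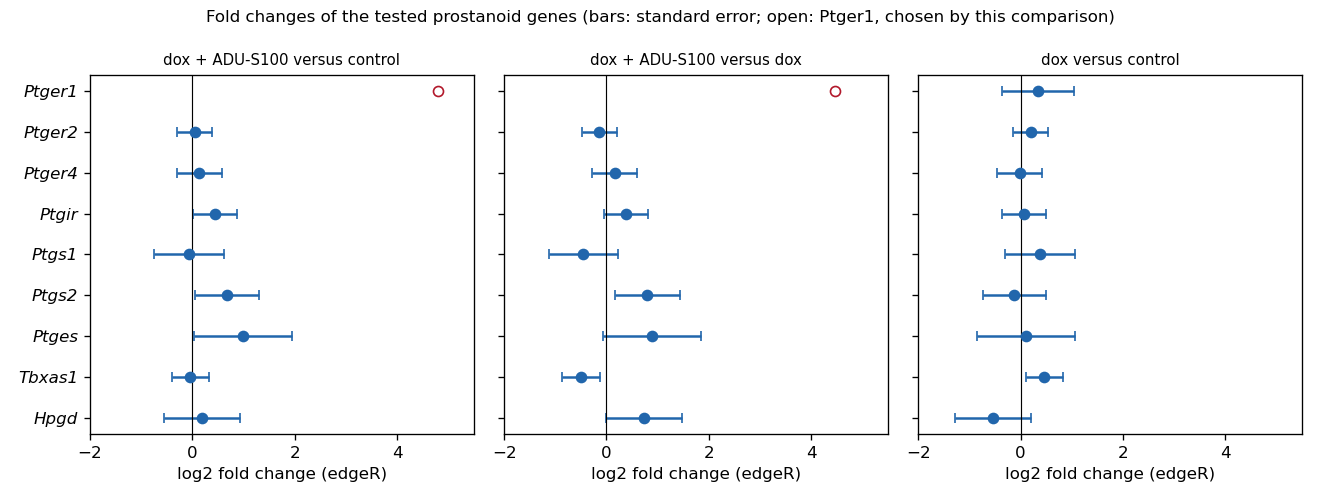
Log2 fold change of each tested gene in the 3 comparisons, with bars of 1 standard error from edgeR. Ptger1 is drawn without an error bar in both combination comparisons because it was chosen by them, at 4.80 and 4.47, and the other 8 genes lie between -0.54 and 0.99.

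Levels per length placed the 10 genes in a wide order. The median over the 9 libraries was 87.4 CPM per kilobase for Ptgs2, 13.4 for Tbxas1, 9.71 for Ptgs1, 7.26 for Ptger4, 2.78 for Ptges, 2.41 for Ptger2, 2.17 for Ptgir, 0.555 for Hpgd and 0.00711 for Ptger1, and Ptger3 had a median of 0. Ptgs2 was the highest in every library. Compared inside each library, Tbxas1 lay above Ptger4 in all 9, above Ptgs1 in 7 of 9, and Ptgs1 lay above Ptger4 in 7 of 9. Ptges lay above Ptger2 in 5 of 9 libraries and above Ptgir in 5 of 9, and Ptger2 lay above Ptgir in 7 of 9, so no neighbours within these sets kept 1 order in every library. From the lowest to the highest library, Ptger1 spanned 71.6-fold, Ptges 12.9-fold, Ptgs1 7.84-fold, Hpgd 7.00-fold, Ptgs2 6.90-fold and the other genes with counts in every library 2.47-fold to 3.62-fold.

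The start regions of the cyclooxygenases and of Ptges are shown because these enzymes make prostaglandin E2 and each spanned more than 6-fold between libraries. They are taken from RefSeq on GRCm38.p6, run from 250 bases before to 50 bases after the annotated start in the direction of the gene, and capitals mark matches to any of 8 motifs searched on both strands: CACGTG (the E-box), TGACG (a core of the cyclic AMP response element), TTGCNNAA (the core of C/EBP motifs), GGGCGG (the GC box), TATAAA (the TATA box), TGANTCA (the AP-1 site), TTCNNNGAA (the STAT site) and the core of the interferon-stimulated response element. Windows were given for 9 of the 10 genes. The Ptges and Ptgs1 windows lie inside the gene spans given above. They therefore show the start of another transcript than the one that begins the span.
Ptgs2, chr1:150099781-150100080, plus strand: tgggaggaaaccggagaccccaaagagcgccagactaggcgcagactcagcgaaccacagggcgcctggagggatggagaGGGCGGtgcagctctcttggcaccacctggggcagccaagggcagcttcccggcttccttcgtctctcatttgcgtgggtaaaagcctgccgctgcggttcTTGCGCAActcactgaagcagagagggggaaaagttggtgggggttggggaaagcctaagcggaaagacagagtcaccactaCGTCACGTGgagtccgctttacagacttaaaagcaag
Ptges, chr2:30903248-30903547, minus strand: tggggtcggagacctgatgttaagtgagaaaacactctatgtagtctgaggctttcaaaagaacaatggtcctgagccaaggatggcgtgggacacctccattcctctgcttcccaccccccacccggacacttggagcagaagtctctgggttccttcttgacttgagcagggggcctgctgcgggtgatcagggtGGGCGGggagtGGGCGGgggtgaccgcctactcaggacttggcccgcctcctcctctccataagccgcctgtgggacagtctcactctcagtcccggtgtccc
Ptgs1, chr2:36230176-36230475, plus strand: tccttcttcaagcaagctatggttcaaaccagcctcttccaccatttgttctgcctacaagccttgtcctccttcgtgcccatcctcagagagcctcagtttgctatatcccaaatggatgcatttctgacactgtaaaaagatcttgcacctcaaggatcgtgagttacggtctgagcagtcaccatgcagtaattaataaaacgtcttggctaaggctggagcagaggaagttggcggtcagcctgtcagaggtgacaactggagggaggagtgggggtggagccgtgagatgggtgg
The Ptgs2 window held 1 GC box, 1 TTGCNNAA match, and a TGACG match on the reverse strand that shares bases with an E-box. The Ptges window held 2 GC boxes, and the Ptgs1 window held none of the 8 motifs. Of 32851 windows of the same length, 35.7% held GGGCGG, 20.8% TGACG, 10.8% TTGCNNAA and 7.15% CACGTG. A match describes letters in the window and not the binding of a factor.

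Ptgs2os2, a non-coding RNA gene 50.8 kb beyond the end of Ptgs2 (chr1:150159043-150164948), was looked up after its values had been seen. It was at 6.50, 7.51 and 2.83 CPM in doxorubicin + ADU-S100 libraries, 2.13, 2.29 and 2.51 CPM in doxorubicin libraries, and 3.00, 2.90 and 0.850 CPM in control libraries. The combination libraries all lay above the doxorubicin libraries but overlapped the control libraries. Its log2 fold change was 1.32 against control (SE 0.52, unadjusted p = 0.0327 in edgeR) and 1.28 against doxorubicin (SE 0.52, unadjusted p = 0.0369), and neither passed an adjusted p of 0.05. Ptgs2os, a transcript 157 bases from the start of Ptgs2, had at most 34 counts in any library.

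Of 5 lists of neighbouring pathways, 2 had several genes that rose in the combination at the thresholds of the study and 3 had at most 1 in a comparison. None of the genes in these lists passed an adjusted p of 0.05 in edgeR, at which DESeq2 called 2 of the cyclic AMP genes against doxorubicin. Enzymes that release arachidonate, mainly phospholipases A2, had 10 tested members, of which none was called in any comparison, and their median log2 fold changes were 0.03 against control and -0.01 against doxorubicin. Of 7 tested synthases outside the 10 genes, such as Ptges2 and Ptges3, none was called against doxorubicin or in doxorubicin against control. In the combination against control, where 0.708% of all genes were lower, 1 of the 7 was lower.

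That gene was Hpgds, the prostaglandin D synthase of mast cells and some macrophages. It was at 22.0, 51.5 and 23.6 CPM in doxorubicin + ADU-S100 libraries, 70.2, 43.1 and 35.6 CPM in doxorubicin libraries, and 73.7, 42.8 and 90.8 CPM in control libraries. Combination replicate 2 overlapped the other groups, and the log2 fold change was -1.09 against control (SE 0.42, unadjusted p = 0.0272 in edgeR) and -0.62 against doxorubicin (SE 0.41, unadjusted p = 0.169). Of the other prostanoid receptors only Tbxa2r, the thromboxane receptor gene, was tested, at 0.135 to 0.277 CPM in doxorubicin + ADU-S100 libraries, 0.233 to 0.446 CPM in doxorubicin libraries and 0.0532 to 0.148 CPM in control libraries. It was higher in doxorubicin than in control by 1.76 on the log2 scale (SE 0.64, unadjusted p = 0.0226), with no overlap.

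Slco2a1, the prostaglandin uptake transporter, was at 1.88, 0.420 and 2.20 CPM in doxorubicin + ADU-S100 libraries, 0.855, 0.485 and 1.17 CPM in doxorubicin libraries, and 0.354, 0.858 and 0.203 CPM in control libraries. The groups overlapped, with a log2 fold change of 1.66 against control (SE 0.73, unadjusted p = 0.0497 in edgeR). Abcc4, an exporter of prostaglandin E2, lay at 18.9 to 23.4 CPM in doxorubicin + ADU-S100 libraries, wholly above the 15.1 to 16.4 CPM of doxorubicin libraries, while control libraries ranged over 11.4 to 19.8 CPM. Its log2 fold change against doxorubicin was 0.43 (SE 0.23, unadjusted p = 0.0958), below the fold change of the study.

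On the leukotriene branch, which uses the same arachidonate, 1 of 9 tested genes was higher and 1 was lower in the combination than in control. Of all genes, 1.46% were higher and 0.708% lower in that comparison. None of the 9 was called against doxorubicin. Alox5, the first enzyme of leukotriene synthesis, was at 18.2, 30.8 and 16.5 CPM in doxorubicin + ADU-S100 libraries, 49.0, 38.6 and 27.5 CPM in doxorubicin libraries, and 55.3, 42.3 and 57.3 CPM in control libraries. All 3 combination libraries were below all 3 control libraries, with a log2 fold change of -1.24 (SE 0.30, unadjusted p = 0.00228 in edgeR, adjusted p = 0.948), and combination replicate 2 overlapped the doxorubicin libraries (log2 fold change -0.81, SE 0.29, unadjusted p = 0.0217). Ltb4r1, the high-affinity receptor of leukotriene B4, was at 151, 96.8 and 53.3 CPM in doxorubicin + ADU-S100 libraries, 55.8, 128 and 85.1 CPM in doxorubicin libraries, and 63.9, 38.5 and 33.0 CPM in control libraries. Its log2 fold change was 1.15 in the combination against control (SE 0.44, unadjusted p = 0.0267) and 0.99 in doxorubicin against control (SE 0.44, unadjusted p = 0.0483), with overlapping groups in both.

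Another list was drawn up for early responses to cyclic AMP and the factor CREB, the branch downstream of EP2, EP4 and Ptgir. Some of its genes rose in the combination at the thresholds of the study. Of 14 tested, 5 rose and 0 fell against control, 8 rose and 0 fell against doxorubicin, and none was called in doxorubicin against control, where 1.46% of all genes rose in the combination against control and 0.867% against doxorubicin. Others had small values, such as 2 genes chosen after their values were seen, Dusp1 (log2 fold change 0.02 against control and -0.13 against doxorubicin) and Per1 (-0.06 and 0.26). The median log2 fold changes were 0.67, 1.07 and -0.23, against 0.06, 0.07 and -0.01 over all genes. These genes also respond to other stimuli, and some belong to gene sets that the study picked from the same libraries, so their direction is not independent evidence. Those that rose against control were Nr4a3, Crem, Areg, Adora2a and Ramp3, of which Adora2a is itself a receptor gene. A response of the listed genes to cyclic AMP in these cells was not tested.

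Nr4a3, a nuclear receptor gene of this group, was at 84.6, 153 and 37.0 CPM in doxorubicin + ADU-S100 libraries, 22.6, 19.5 and 17.0 CPM in doxorubicin libraries, and 31.3, 41.9 and 24.8 CPM in control libraries. The combination libraries lay above all doxorubicin libraries, by 2.21 on the log2 scale (SE 0.45, unadjusted p = 0.000807 in edgeR), and replicate 3 overlapped control, where the log2 fold change was 1.48 (SE 0.44, unadjusted p = 0.00812). Crem, a cyclic AMP response modulator, was at 88.3, 133 and 37.4 CPM in doxorubicin + ADU-S100 libraries, 28.0, 36.0 and 26.0 CPM in doxorubicin libraries, and 33.4, 37.1 and 28.2 CPM in control libraries. It lay above all 6 other libraries by a small margin in replicate 3 and by a large one in replicates 1 and 2. Areg, which encodes a growth factor of the EGF family, rose by 2.03 against control (SE 0.67) and 2.70 against doxorubicin (SE 0.69), and Adora2a, an adenosine receptor that raises cyclic AMP, rose by 2.05 (SE 0.65) and 1.96 (SE 0.65).

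Of 12 tested inflammatory genes that are commonly induced together with Ptgs2, 3 rose against control and 5 rose against doxorubicin, and none fell, where 1.46% and 0.867% of all genes rose. The median log2 fold changes were 1.11 and 1.21, against 0.06 and 0.07 over all genes. Some of these genes, such as Il1a and Cxcl1, belong to gene sets that the study picked from the same libraries. The study also named Il6 and Il10 as raised in them, so the direction of the list is not independent evidence. Il6 was at 12.3, 27.7 and 3.96 CPM in doxorubicin + ADU-S100 libraries, 2.20, 5.67 and 3.09 CPM in doxorubicin libraries, and 4.79, 8.07 and 1.59 CPM in control libraries. Il10 was at 11.3, 23.4 and 4.50 CPM in doxorubicin + ADU-S100 libraries, 4.67, 2.37 and 2.54 CPM in doxorubicin libraries, and 2.71, 8.03 and 1.76 CPM in control libraries. For both cytokine genes combination replicate 2 was the highest library and replicate 3 lay among the other groups, as for Ptgs2. Cxcl1, a neutrophil chemokine gene, was at 309, 596 and 430 CPM in combination replicates 1, 2 and 3. It was at 222, 135 and 132 CPM in doxorubicin libraries, and 138, 548 and 94.4 CPM in control libraries. Its combination replicate 2 was also the highest library, but replicate 3 lay above replicate 1, and only control replicate 2 of the other groups was higher than replicate 3.

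Both counts depended on single libraries. Without combination replicate 2, 1 of the 14 cyclic AMP genes rose against control and 5 against doxorubicin, and 0 of the 12 inflammatory genes rose in either comparison. Without combination replicate 1, the counts against control and doxorubicin were 4 and 5 for the cyclic AMP genes and 0 and 4 for the inflammatory genes. Without combination replicate 3, they were 7 and 7 for the cyclic AMP genes and 7 and 7 for the inflammatory genes. When all 4 libraries rich in fibroblast transcripts were left out, they were 7 and 8 for the cyclic AMP genes and 9 and 7 for the inflammatory genes. Leaving out single doxorubicin or control libraries gave 3 to 7 cyclic AMP genes and 0 to 5 inflammatory genes.

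**Figure D4:**
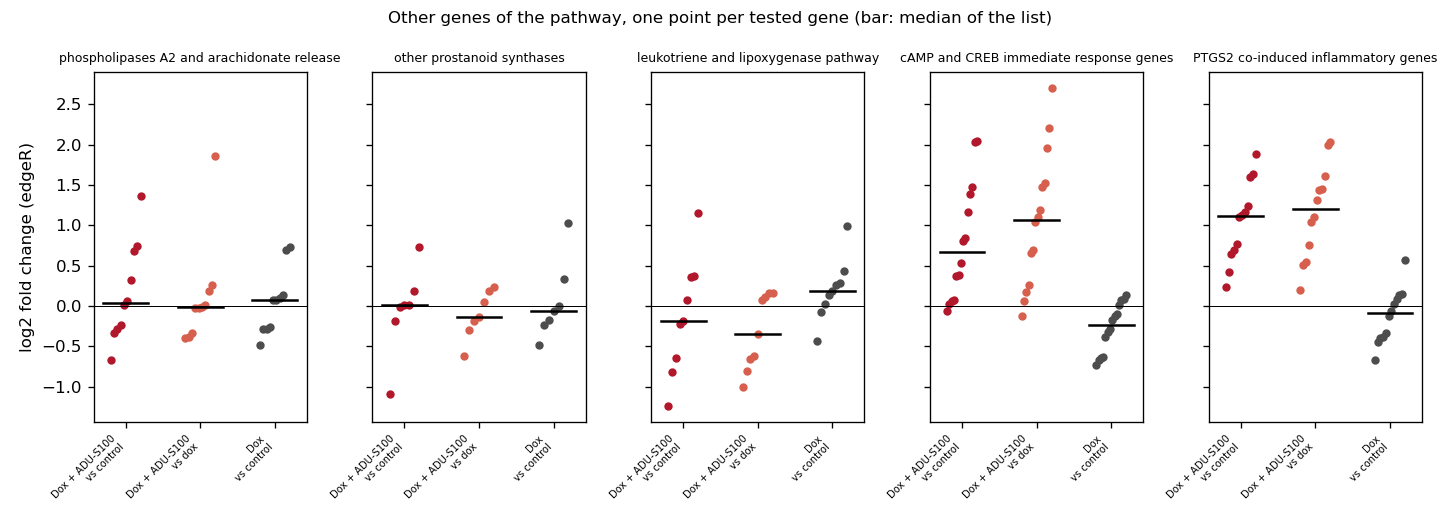
Log2 fold change (edgeR) of every tested gene of 5 pathway lists in the 3 comparisons, 1 point per gene, with the median of each list as a bar. The cyclic AMP list (medians 0.67 and 1.07) and the list induced with Ptgs2 (1.11 and 1.21) lie mostly above 0 in both combination comparisons, and the other lists are spread around 0.

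Over the 9 libraries, the genes whose log2 CPM was most like that of Ptger1 were Vps37c (Pearson r 0.98, Spearman rho 0.77), Rela (0.94, 0.50), Fam110a (0.94, 0.53), Ripk2 (0.94, 0.78) and Zc3h10 (0.93, 0.80). These libraries fall into the combination and the rest, so the coefficients describe mainly that split. Rela, a subunit of NF-kappaB, was at 98.3, 102 and 105 CPM in doxorubicin + ADU-S100 libraries, 72.6, 72.3 and 76.8 CPM in doxorubicin libraries, and 76.2, 70.0 and 73.0 CPM in control libraries. Ripk2, a kinase in innate immune signalling, was at 47.2 to 65.0 CPM in doxorubicin + ADU-S100 libraries, 32.4 to 38.1 CPM in doxorubicin libraries and 27.8 to 36.2 CPM in control libraries. Neither gene overlapped between the combination and the rest, and their differences were much smaller than that of Ptger1.

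For Ptgs2 the most similar genes were Tank (Pearson r 0.96, Spearman rho 0.92), Ell2 (0.95, 0.92), Rapgef2 (0.95, 0.92), Usp38 (0.94, 0.95) and Zbtb2 (0.94, 0.83). Tank, which encodes an adaptor in NF-kappaB and interferon signalling, was at 52.7, 90.2 and 32.7 CPM in doxorubicin + ADU-S100 libraries, 51.4, 49.1 and 53.7 CPM in doxorubicin libraries, and 63.9, 51.4 and 40.1 CPM in control libraries. Combination replicate 2 was the highest and replicate 3 the lowest, the same extremes that set the Ptgs2 pattern within the combination. None of the 5 genes most like Ptgs2 was among those most like Ptger1.

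Ptger1 was chosen by the combination comparisons, and 1.55% of all genes lay above all 6 other libraries, so marker lists are no even contrast to it. Single markers could differ where sums overlapped. Of 8 endothelial genes, 4 lay wholly higher in the combination than in control and 0 than in doxorubicin. In doxorubicin against control 3 of the 8 lay wholly higher, where 1.77% of all genes did. Their median log2 fold change was 0.77 in that comparison and 0.39 in the combination against control. All 4 tested keratinocyte genes passed the thresholds of the study as higher against control and 1 against doxorubicin, where 1.46% and 0.867% of all genes did. In doxorubicin against control all 4 also had log2 fold changes above 0, and 1 passed, where 0.360% of all genes did. These values were near the floor, since Krt5, Krt14 and Krt1 were at 0 CPM in combination replicate 3 and at most 0.0709 CPM in control libraries. For each of 10 marker lists, the summed level in doxorubicin + ADU-S100 libraries overlapped that in the 6 other libraries. The 8 macrophage genes summed to 4429 to 9218 CPM in doxorubicin + ADU-S100 libraries, 6014 to 11320 CPM in doxorubicin libraries and 6243 to 10530 CPM in control libraries, with none at 0. All 8 had log2 fold changes below 0 in both combination comparisons. Their median was -0.47 relative to control (0.06 over all genes) and -0.57 relative to doxorubicin (0.07 over all genes), and none was called at the thresholds of the study. Alox5 and Hpgds, described above, passed those thresholds as lower against control, and the part of macrophages in them was not tested. The 7 monocyte genes summed to 1084 to 3069 CPM in doxorubicin + ADU-S100 libraries, 1409 to 2183 CPM in doxorubicin libraries and 1398 to 2116 CPM in control libraries. Of these, 3 lay wholly higher in the combination than in control, among them Ly6c2 (log2 fold change 2.65, SE 0.74) and Plac8 (2.34, SE 0.62), and F13a1 lay wholly lower (-1.36, SE 0.51). Among all genes, 4.39% lay wholly higher and 3.95% wholly lower in that comparison. Against doxorubicin, 0 of the 7 lay wholly higher or lower, and their median log2 fold change was 0.03 (0.07 over all genes). In doxorubicin against control, Ly6c2 was higher by 1.30 (SE 0.71) and Plac8 by 1.37 (SE 0.60).

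Neutrophil genes summed to 81.0 to 394 CPM in doxorubicin + ADU-S100 libraries, 103 to 671 CPM in doxorubicin libraries and 147 to 343 CPM in control libraries, with up to 2 of 8 at 0 in a library. Platelet genes, which are of interest for thromboxane synthesis, summed to 68.3 to 327 CPM in doxorubicin + ADU-S100 libraries, 82.9 to 203 CPM in doxorubicin libraries and 110 to 208 CPM in control libraries, with up to 3 of 8 at 0. Mast cell and basophil genes summed to 5.95 to 36.0 CPM in doxorubicin + ADU-S100 libraries, 18.1 to 55.8 CPM in doxorubicin libraries and 4.37 to 23.5 CPM in control libraries, with up to 2 of 9 at 0. Keratinocyte genes reached 53.6 CPM in combination replicate 2, the library with the highest Ptgs2, against at most 5.24 CPM in the others, where up to 5 of 6 were at 0. The part of these cells in the values of the 10 genes was not tested.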

How the data were processed

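The deposited values are counts: whole numbers of reads per gene and library, not normalized, for 45777 genes in 9 libraries. Per the labels, the authors used Trimmomatic (0.38) for trimming, HISAT2 (2.1.0) for alignment to mm10 and StringTie (2.1.3b) for counting, which derives counts from transcript coverage; their strand setting is not given in the sources used here. All 9 columns were matched to groups by the labels, and 0 columns were left out. Genes were kept by filterByExpr (16373, of which 9 of the 10 genes described) and tested in 1 model of the 3 groups with edgeR's quasi-likelihood test (edgeR 4.0.16, R 4.3.3), TMM scaling and two-sided Benjamini-Hochberg adjustment over all genes tested. The thresholds were an adjusted p under 0.05, and those of the study, a change of more than 2-fold at an unadjusted p below 0.05. Log2 CPM and the Ptgs2 to Ptgs1 ratio used a prior count of 2. Levels per length used the union of GENCODE exons. Library totals of 50110494 to 69456603 counts leave counting error small beside the replicate spread, except for Ptger1, Ptger3 and Hpgd. The common biological coefficient of variation was 0.457. Exact counting intervals are Clopper-Pearson based at 95%.

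The 10 genes, the gene lists and the tests were chosen with earlier results of these data known. Named genes are the 10, genes that overlap them or lie next to them, where reported, up to 4 genes of each list with the smallest p plus any past the thresholds of the study, and the 5 genes most correlated with Ptger1 and Ptgs2; Ptgs2os2 was added after its values were seen. Alternatives were DESeq2 (1.42.0), limma-voom (limma 3.58.1), RLE scaling, other filters on low counts, a model of 2 groups, the replicate number as a block, omission of mitochondrial and haemoglobin genes, a fibroblast covariate, and omission of libraries singly or of those rich in fibroblast transcripts. The scripts were tested on simulated data. Protein sequences and a start region of Ptger1 are not shown here. A result on 1 further gene is not reported here.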

Additional observations from a re-analysis of the deposited data

How the results depend on the processing

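The combination comparisons of Ptger1 kept their direction under every alternative in which it could be fitted. It was not fitted when genes had to reach CPM 1 in 3 libraries. Its log2 fold change against doxorubicin moved to 4.88 with limma-voom, and leaving out single libraries gave 4.10 to 4.86. The number of genes at the thresholds of the study was 355 in the combination against control, 199 against doxorubicin and 74 in doxorubicin against control. With limma-voom it was 624, 573 and 310, with no filter 579, 399 and 213, without control replicate 2, doxorubicin replicate 3 and combination replicate 3 together 639, 784 and 128, and without all 4 libraries rich in fibroblast transcripts, an alternative added after the data were seen, 809, 562 and 293. Requiring CPM 1 in 3 libraries gave 123 against doxorubicin and 38 in doxorubicin against control, and the fibroblast mean as a covariate gave 149 in doxorubicin against control. Leaving out single libraries gave 257 to 895, 154 to 678 and 44 to 211, with the highest combination counts without combination replicate 3. At an adjusted p under 0.05, DESeq2 called 27, 9 and 2 genes. A model restricted to both compared groups called 1 gene in the combination against control, leaving out the 4 libraries called 1 in each combination comparison, and leaving out single libraries called 0 to 1 in the combination against control and in doxorubicin against control; each of these single calls was the predicted gene Gm8810.

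Leaving out single libraries turned the direction of several genes. In the combination against control the log2 fold changes then ranged over -0.19 to 0.32 for Ptger2, -0.37 to 0.50 for Ptger4, -1.10 to 0.30 for Ptgs1, -0.41 to 1.10 for Ptgs2, -0.72 to 2.32 for Ptges, -0.36 to 0.20 for Tbxas1 and -0.13 to 0.44 for Hpgd. In the combination against doxorubicin they ranged over -0.39 to 0.12 for Ptger2, -0.35 to 0.51 for Ptger4, -1.49 to 0.27 for Ptgs1, -0.29 to 1.23 for Ptgs2 and -0.81 to 1.31 for Ptges, and in doxorubicin against control over -0.0542 to 0.68 for Ptger1, -0.0711 to 0.37 for Ptger2, -0.30 to 0.24 for Ptger4, -0.23 to 0.32 for Ptgir, -0.33 to 0.76 for Ptgs1, -0.43 to 0.12 for Ptgs2 and -0.28 to 1.43 for Ptges. The difference in the Ptgs2 to Ptgs1 ratio ranged over -0.0423 to 2.14 against control, and over -0.99 to 0.38 in doxorubicin against control. Other alternatives that turned a sign gave, in the combination against control, Ptger2 -0.0193 with the replicate block and -0.0133 with the covariate, Ptges -0.0111 with limma-voom, and Tbxas1 0.0434 with limma-voom, 0.0313 without 3 libraries and 0.0101 without 4. Against doxorubicin they gave Ptger2 0.26 and Ptges -0.61 with limma-voom, Ptger4 -0.0209 with the covariate, and Ptges -0.54 without 3 libraries. In doxorubicin against control they gave Ptger1 -0.23, Ptger2 -0.0255, Ptgs1 -0.14 and Hpgd 0.0226 with limma-voom, Ptger4 0.10 with the covariate, and Ptgs2 0.11 with the replicate block. Without the 4 libraries Ptgs1 was called lower against control (-1.22) and doxorubicin (-2.34), and Ptger4 higher against doxorubicin (1.21). That omission left 1 doxorubicin library, which is assumed to vary like the other groups. Of the 12 inflammatory genes, none was called against control in a model restricted to both compared groups. Alternatives other than leaving out single libraries gave Hpgd log2 fold changes of 0.24 to 2.26 in the combination against doxorubicin. In doxorubicin against control they gave Hpgd -2.03 to 0.0226. The causes were not tested. Ptger4, Ptger2 and Tbxas1 had levels per length of 12.8, 3.40 and 26.6 with the longest GENCODE transcript. The longest RefSeq transcript was not run, since its length is not in the reference used here.

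The replicate number does not pair the libraries: deviations of same-numbered libraries correlated from -0.60 to 0.38 over 9 pairs, and those of other pairs from -0.58 to 0.66 over 18 pairs. With the replicate block the numbers of genes at the thresholds of the study were 265, 133 and 54 in the 3 comparisons. None of the 8 genes tested apart from Ptger1 gained a call.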
